A study of Mus musculus with 12 samples.

Results

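The fractalkine system was followed through 8 genes in CT26 cells, a mouse colon carcinoma cell line. They were the ligand CX3CL1 (fractalkine), its receptor CX3CR1, the proteases ADAM10 and ADAM17 that release the ligand from the cell surface, and the integrin subunits ITGAV, ITGB3, ITGA4 and ITGB1, which form candidate additional receptors. The genes were chosen by name, and all 8 were found among the 23636 gene symbols measured. CT26 cells were left without treatment or received CX3CL1 at 2 µg/ml, IFN-γ at 100 ng/ml, or both (CX3CL1+IFN-γ). The doses and the treatment time of 8 hours were taken from the study's methods and a figure legend. The study's text describes IFN-γ and TNF-α followed by CX3CL1, while the sample labels and that legend do not name TNF-α. Below, an agent "added" to another names a comparison of groups and not an order of treatment. Each of the 4 groups had 3 biological replicates of messenger RNA, which gave 12 libraries. All groups came from the same line in culture with no other cell type added. The ligand was supplied as protein, and no group carried an engineered change in any of the 8 genes.

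Fractalkine is unusual among chemokines because it is made as a membrane protein, with the chemokine domain held away from the cell on a mucin stalk. In this form it can hold passing leukocytes, and after cleavage by ADAM10 in resting cells or by ADAM17 after stimulation it becomes a soluble attractant. CX3CR1 is a Gi-coupled receptor best known from monocytes, microglia and natural killer cells. Integrins are dimers of an alpha and a beta subunit, and the pairs ITGAV with ITGB3 and ITGA4 with ITGB1 are described as further binding partners of the ligand.

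The genes fell into 2 clearly separate groups by level. ITGB1, ITGAV, ADAM10 and ADAM17 were all expressed, with means of 419, 69.4, 49.3 and 39.5 TPM over the 12 libraries. TPM is a transcript level per length, scaled to a total of 1000000 in each library. CX3CR1, CX3CL1, ITGB3 and ITGA4 never passed 0.154 TPM in any library. The receptor and 1 subunit of each candidate integrin were therefore at or near 0 on the RNA level, in the untreated cells and after every treatment.

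The promoters of 3 expressed genes and of ITGA4, a gene near 0, are shown because ADAM10, ITGAV and ITGB1 varied together from library to library. Each is the stretch of 250 bases before the gene start in RefSeq (build GRCm38.p6), written 5′ to 3′ on the strand of the gene with each CpG in capitals.
ADAM10: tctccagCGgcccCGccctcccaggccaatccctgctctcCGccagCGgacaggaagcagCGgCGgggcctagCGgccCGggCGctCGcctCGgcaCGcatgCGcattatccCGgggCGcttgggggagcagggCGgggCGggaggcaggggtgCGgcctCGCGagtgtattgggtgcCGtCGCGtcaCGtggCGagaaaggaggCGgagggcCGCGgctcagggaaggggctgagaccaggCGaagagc
ITGAV: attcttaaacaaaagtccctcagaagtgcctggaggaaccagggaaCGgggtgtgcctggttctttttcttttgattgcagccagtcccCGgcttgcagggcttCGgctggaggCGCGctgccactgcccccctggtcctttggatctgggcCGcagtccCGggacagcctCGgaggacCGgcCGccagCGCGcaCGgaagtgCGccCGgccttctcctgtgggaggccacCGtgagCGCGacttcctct
ITGB1: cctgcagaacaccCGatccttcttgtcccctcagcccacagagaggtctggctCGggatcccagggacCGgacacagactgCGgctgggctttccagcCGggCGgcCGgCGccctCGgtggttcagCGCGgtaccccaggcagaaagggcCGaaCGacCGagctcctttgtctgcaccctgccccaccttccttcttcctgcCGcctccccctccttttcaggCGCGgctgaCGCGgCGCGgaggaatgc
ITGA4: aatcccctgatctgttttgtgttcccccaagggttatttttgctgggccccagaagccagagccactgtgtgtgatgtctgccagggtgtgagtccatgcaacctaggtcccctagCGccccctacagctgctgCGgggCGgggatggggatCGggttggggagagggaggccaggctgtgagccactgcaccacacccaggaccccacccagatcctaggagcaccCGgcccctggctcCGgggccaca
The windows lie at chr9:70678732-70678981 for ADAM10, chr2:83724147-83724396 for ITGAV, chr8:128685404-128685653 for ITGB1 and chr2:79255176-79255425 for ITGA4, all on the plus strand. The CpG count was 29 for ADAM10, 18 for ITGAV, 21 for ITGB1 and 6 for ITGA4. Windows were found for 7 of the 8 genes, and the remaining counts were 23 for ADAM17, 14 for CX3CL1 and 4 for CX3CR1, against a median of 6 over 32851 promoters of the same length. Among these 7 genes the 4 expressed ones had the highest counts. By the gene positions given below, however, the CX3CL1 window (chr8:94771930-94772179) runs past the start of the gene. The CX3CR1 window (chr9:120068297-120068546) lies inside the gene. Their counts may therefore not be those of the promoter, which limits this contrast. Both strands were searched for TTCNNNGAA (the GAS element of interferon signalling), the core of the interferon-stimulated response element (ISRE) and an NF-kB site. These motifs occurred in 7.02%, 2.98% and 0.356% of all promoters, and in none of the 7 windows, so that no motifs overlapped. No match says only that these letters are not in the windows.

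The libraries carried the markers of the line only in part. VIM, a mesenchymal filament gene, ranged from 1684 to 4831 TPM and the keratin gene KRT18 from 18.4 to 53.6 TPM, while the epithelial genes EPCAM, CDH1 and KRT8 did not pass 0.364 TPM. Of 13 leukocyte markers, 2 were above a mean of 1 TPM, CD14 (23.7 to 47.5 TPM) and CD68 (7.95 to 27.0 TPM). The leukocyte markers summed to 35.4 to 47.3 TPM without treatment, 38.1 to 69.9 after CX3CL1, 37.6 to 57.9 after IFN-γ and 41.9 to 70.4 after both, and their part in the results was not tested. The defining leukocyte genes were near 0, with TYROBP and CD3E listed at 0 in all 12 libraries and PTPRC at 0.0441 TPM or less. The endothelial markers PECAM1, CDH5 and KDR summed to 0.0725 TPM or less, and the platelet markers ITGA2B, GP9 and PF4 to 0.344 to 0.897 TPM. The values hold no read depth, so the counting error is unknown. CX3CL1 replicate 2 stood apart from its group, since its genes differed from the remaining CX3CL1 libraries by a median of 0.266 and 0.262 (absolute log2 difference), where these differed from each other by 0.141.

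The ligand gene CX3CL1 (chr8:94772009-94782427, plus strand, GRCm38) was listed at 0 in 9 of the 12 libraries. The exceptions were no treatment replicate 1 at 0.0178 TPM, CX3CL1 replicate 1 at 0.0166 TPM and CX3CL1 replicate 3 at 0.0121 TPM. All 6 libraries with IFN-γ, a cytokine known to raise fractalkine in other cell types, were listed at 0. Groups with and without the added protein both stayed at or near 0. A value of 0 can be a failed estimate here, since the ribosomal protein gene RPL26, chosen after its values were seen, was also listed at 0 in all 12 libraries.

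The receptor gene CX3CR1 (chr9:119901616-120069879, minus strand) was above 0 in 11 of 12 libraries, always at a very low level. Without treatment it was at 0.0439, 0.0596 and 0.122 TPM in replicates 1 to 3, and after CX3CL1 at 0.0137, 0.102 and 0.0698 TPM. With IFN-γ the values were 0.0672, 0.0541 and 0.118 TPM, and with CX3CL1+IFN-γ they were 0.154, 0 and 0.139 TPM. The lowest and the highest value of CX3CR1 came from the same group, CX3CL1+IFN-γ, and all 4 groups overlapped. A higher mean was found for 12591 symbols. Bulk RNA cannot tell apart fewer cells with a transcript and less transcript per cell, and transcript level is not receptor level at the surface.

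The 2 integrin subunits of this low group, ITGB3 (chr11:104608000-104670476, plus strand) and ITGA4 (chr2:79255426-79333123, plus strand), were rarer still. ITGB3, the partner of ITGAV in the vitronectin receptor, was at 0.00707, 0.0136 and 0.00674 TPM with IFN-γ, at 0.0125 TPM in no treatment replicate 2 and at 0.00605 TPM in CX3CL1+IFN-γ replicate 1. It was listed at 0 in the 7 others. ITGA4, which pairs with ITGB1 in the receptor for VCAM1 and fibronectin, was at 0.0163, 0.00392 and 0.00388 TPM with IFN-γ and at 0.0108 TPM in no treatment replicate 2, and was listed at 0 in the 8 others. Both genes were above 0 in every IFN-γ library, at values too low to read as a change.

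No treatment difference could be shown for these 4 genes. They missed the minimum of a mean of 0.2 TPM for the fit across genes, and 25 of their 48 values were 0. With 3 libraries a group the exact permutation test (two-sided) has 0.1 as its smallest p, and the 16 tests of the 4 genes gave p-values from 0.1 to 1.00, adjusted to 0.800 or more by Benjamini-Hochberg. The lowest, 0.1 by the exact test, belonged to ITGB3 and ITGA4 between CX3CL1+IFN-γ and IFN-γ. With no minimum, limma over 16889 genes gave the 4 genes a lowest adjusted p of 0.597.

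**Figure D1:**
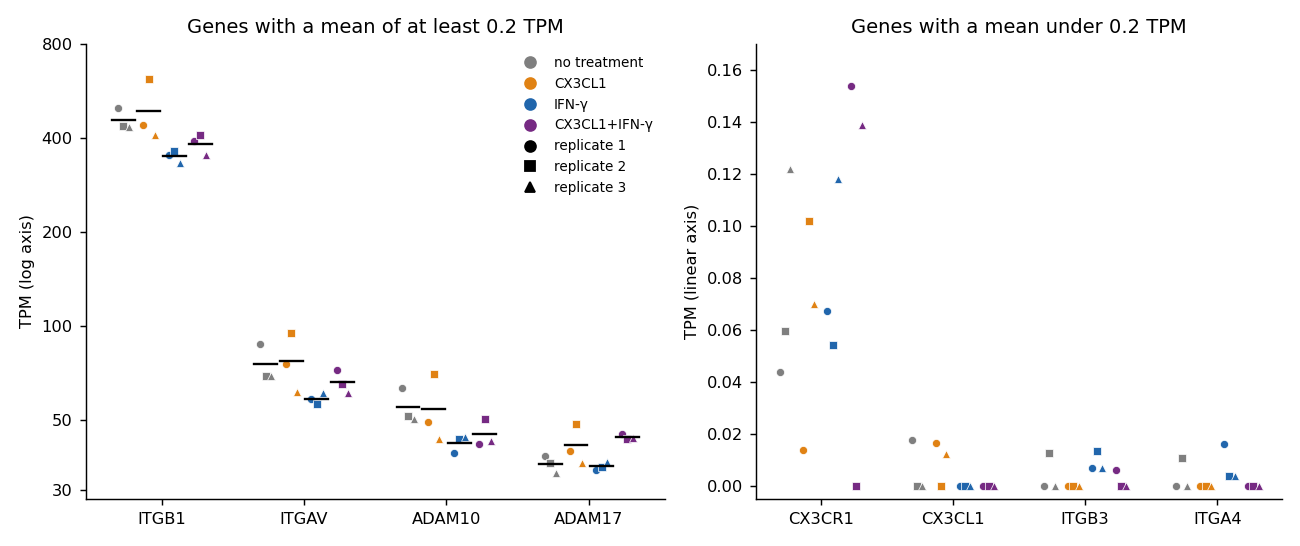
TPM of the 8 genes in each of the 12 libraries, on a log axis for the 4 expressed genes (left) and on a linear axis for the 4 genes with a mean under 0.2 TPM (right). Colours mark the 4 groups, shapes the replicates and black lines the mean of 3 libraries. ITGB1 lies between 334 and 616 TPM, while no value on the right passes 0.154 TPM.

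ITGB1 (chr8:128685654-128733200, plus strand), the beta subunit shared by the largest set of matrix receptors, was the most abundant of the 8 genes, and 98.5% of all symbols had a lower mean. ITGAV (chr2:83724397-83806916, plus strand), the alpha subunit of the RGD-binding receptors, exceeded the mean of 89.0% of symbols, ADAM10 (chr9:70678997-70780229, plus strand) that of 85.0% and ADAM17 (chr12:21323509-21373632, minus strand) that of 82.2%. ITGB1 was above ITGAV in 12 of 12 libraries, and ITGAV was above ADAM10 in 12 of 12. ADAM10 was above ADAM17 in 10 of 12, and the order was turned in CX3CL1+IFN-γ replicates 1 and 3. The neighbours ADAM10 and ADAM17 therefore differed by less than their spread in the CX3CL1+IFN-γ cells, at 45.1 ± 4.60 and 44.3 ± 0.830 TPM (SD, n = 3).

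Treatments were compared as log2(TPM + 1) with limma over 11878 genes (those whose mean reached 0.2 TPM), and a gene was called at a Benjamini-Hochberg adjusted p under 0.05. Differences are given on that scale, where the change of low genes appears smaller than it is, with a standard error. What separated the biological replicates is not stated, so the p-values measure the spread between these libraries.

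IFN-γ was compared with no treatment first. ITGB1, ITGAV and ADAM10 were all lower in each IFN-γ library than in each untreated library, by 0.35 to 0.38 on the log2 scale, and ADAM17 was level. None of the 4 was called after adjustment over all genes. ITGB1 was at 498, 437 and 434 TPM without treatment and at 353, 363 and 334 TPM with IFN-γ, so the groups did not overlap. The difference was -0.38 (SE 0.14, adjusted p = 0.121 by limma). With the replicate number as a block it was also -0.38 and was called lower (adjusted p = 0.0498), and with only these 6 libraries in the fit ITGB1 was called as well (adjusted p = 0.0239).

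ITGAV was at 88.0, 69.5 and 69.1 TPM without treatment and at 58.4, 56.4 and 60.9 TPM with IFN-γ. The groups lay apart, with no treatment replicate 1 well above the rest, and the difference was -0.35 (SE 0.15, adjusted p = 0.179 by limma). ADAM10, the sheddase that acts in resting cells, was at 63.6, 51.6 and 50.5 TPM without treatment and at 39.4, 43.4 and 44.2 TPM with IFN-γ. These groups also lay apart, and the difference was -0.37 (SE 0.16, adjusted p = 0.191 by limma). ADAM17, the sheddase of stimulated cells, was at 38.3, 36.5 and 34.0 TPM and at 34.6, 35.3 and 36.8 TPM. Its groups overlapped, with a difference of -0.03 (SE 0.11, 95% interval -0.25 to 0.20, adjusted p = 0.913 by limma).

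Thus 3 of the 4 genes tested had groups that did not overlap, all lower, where 34.2% of all genes tested (13.7% lower, 20.6% higher) had such groups. Of the 11878 genes, 7.85% were called between IFN-γ and no treatment, against 0 of the 4 here. At an unadjusted p under 0.05 by limma were 2611 of the 11878 genes, and 3 of the 4. After centring for GC content and transcript length, an alternative added after the data were seen, ITGB1 (-0.36, adjusted p = 0.0129), ITGAV (-0.28, adjusted p = 0.0250) and ADAM10 (-0.31, adjusted p = 0.0284) were called lower by limma. This centring called 1375 of the 11878 genes, against 932 without it. The call for these 3 genes therefore depends on the processing, while their direction held in all alternatives run.

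The same IFN-γ step in cells that also received CX3CL1 compares CX3CL1+IFN-γ with CX3CL1, and shares no library with the comparison above. ITGB1 was again lower, at 390, 408 and 352 TPM with both agents against 439, 616 and 409 TPM with CX3CL1 alone. All 3 values were below the CX3CL1 values, although the gap between 408 and 409 TPM was small, and the difference was -0.33 (SE 0.14, adjusted p = 0.228 by limma). ADAM10 was at 42.1, 50.4 and 42.8 TPM against 49.5, 70.3 and 43.4 TPM, and ITGAV at 72.4, 65.3 and 61.0 TPM against 75.5, 95.2 and 61.5 TPM. Both pairs of groups overlapped, with differences of -0.24 (adjusted p = 0.479 by limma) and -0.20 (adjusted p = 0.528). ADAM17 differed by 0.10 (95% interval -0.13 to 0.33). The lower levels of ITGB1, ADAM10 and ITGAV rest on CX3CL1 replicate 2. Without that library the differences were -0.15 for ITGB1, -0.04 for ADAM10 and -0.04 for ITGAV. That of ADAM17 grew to 0.21, and none was called. Among all genes 4.70% were called and 19.5% had groups that did not overlap (14.0% higher, 5.48% lower), against 0 and 1 of the 4 here. With GC and length centring ITGB1 was called lower (-0.34, adjusted p = 0.0254 by limma), where 837 of the 11878 genes were called. With the replicate block added to that, ITGB1 (-0.34, adjusted p = 0.00437), ITGAV (-0.23, adjusted p = 0.0256) and ADAM10 (-0.24, adjusted p = 0.0374) were called. That setting called 2149 of the 11878 genes, against 558 in the fit described above.

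CX3CL1 alone did not move any of the 4 expressed genes beyond the spread of its replicates. ADAM17 was at 40.0, 48.6 and 36.4 TPM after CX3CL1 against the untreated values above, a difference of 0.19 (SE 0.11, 95% interval -0.04 to 0.42, adjusted p = 0.839 by limma). The differences were 0.08 for ITGB1 (95% interval -0.22 to 0.37), 0.02 for ITGAV (-0.30 to 0.34) and -0.04 for ADAM10 (-0.39 to 0.30). All 4 pairs of groups overlapped, against 11.2% of all genes with groups that did not (5.50% higher, 5.73% lower), and 0 of the 4 were called against 1.95% of all genes. These intervals include changes in either direction.

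These values moved when single libraries were left out. Without CX3CL1 replicate 3 the differences were 0.10 for ADAM10, 0.17 for ITGAV, 0.19 for ITGB1 and 0.28 for ADAM17. ADAM10 was also at 0.06 without no treatment replicate 1, and ITGAV at -0.04 without no treatment replicate 3. The values moved most without CX3CL1 replicate 2, in which each of the 4 genes had its highest level of all 12 libraries. Without that library the differences from untreated cells were -0.24 for ADAM10, -0.14 for ITGAV, -0.10 for ITGB1 and 0.07 for ADAM17, and none was called. In the same library the 20% of genes with the lowest GC content lay 0.33 above their level over all libraries (median on the log2 scale) and the 20% with the highest GC content lay at -0.26. The lowest-GC genes lay at 0.14 in no treatment replicate 1 and between -0.13 and 0.08 in the 10 others. The 4 genes have transcripts with a GC content of 42.1% to 45.1%, and 13.1% to 26.6% of the genes tested have a lower one. The part of GC content in these levels was not tested beyond the centring given above.

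When CX3CL1 was added to IFN-γ, ADAM17 was the gene that stood out. It was at 45.3, 43.7 and 44.0 TPM with both agents and at 34.6, 35.3 and 36.8 TPM with IFN-γ alone, and the narrow groups lay apart. The difference was 0.31 (SE 0.11, 95% interval 0.08 to 0.54), at an unadjusted p of 0.0120 and an adjusted p of 0.708 by limma, so it was not called. ITGAV was also higher in each library with both agents, by 0.17 (SE 0.15, adjusted p = 0.975 by limma), with 61.0 TPM in the lowest against 60.9 TPM in the highest IFN-γ library. ITGB1 and ADAM10 overlapped, with differences of 0.13 and 0.09. Over all genes 0.362% were called and 16.3% had groups that did not overlap (8.54% higher, 7.74% lower), against 0 and 2 of the 4 here. This comparison shares the IFN-γ libraries with the comparison of IFN-γ and no treatment.

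The interaction asks whether CX3CL1 acted differently with IFN-γ than without it. It was 0.13 for ADAM10, 0.12 for ADAM17, 0.15 for ITGAV and 0.05 for ITGB1, with intervals that all included 0 (for ADAM17 -0.20 to 0.45) and adjusted p-values of 1.00 by limma. The percentage of all genes called was 0, with 273 genes at an unadjusted p under 0.05, none of them among the 4.

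**Figure D2:**
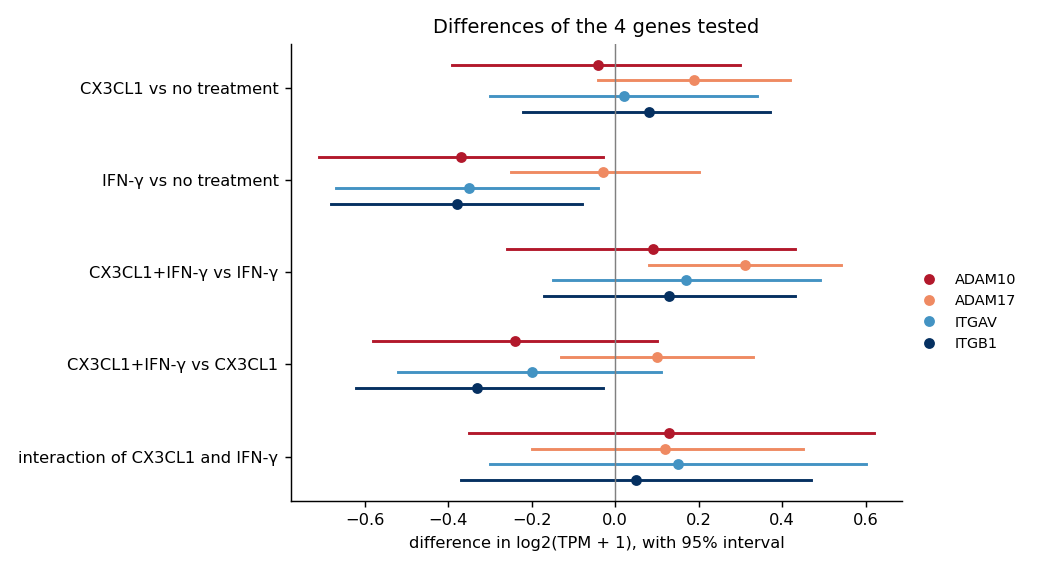
Difference in log2(TPM + 1) with its 95% interval for ADAM10, ADAM17, ITGAV and ITGB1 in each of the 5 comparisons. The intervals of ADAM10, ITGAV and ITGB1 lie below 0 for IFN-γ against no treatment, that of ITGB1 also for CX3CL1+IFN-γ against CX3CL1, and that of ADAM17 lies above 0 for CX3CL1+IFN-γ against IFN-γ.

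The balance between the sheddases can be read as the ratio of ADAM10 to ADAM17 within each library, a measure chosen after the values were seen and therefore given with no test. It was 1.66, 1.41 and 1.49 without treatment, and 1.24, 1.45 and 1.19 after CX3CL1. With IFN-γ it was 1.14, 1.23 and 1.20, and with both agents 0.930, 1.15 and 0.972. The IFN-γ libraries were all below the untreated ones, and the libraries with both agents were all below those with CX3CL1 alone. ADAM10 was thus the more abundant sheddase transcript in untreated cells (mean ratio 1.52 ± 0.128, SD, n = 3), and the transcripts were about equal with both agents (1.02 ± 0.117).

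**Figure D3:**
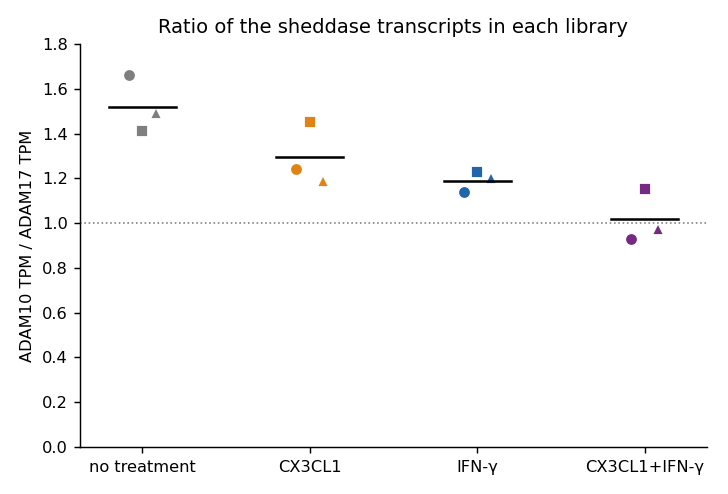
Ratio of ADAM10 TPM to ADAM17 TPM in each library by group, with the mean as a black line and equal levels as a dotted line. The untreated libraries sit between 1.41 and 1.66, the IFN-γ libraries between 1.14 and 1.23, and 2 of the 3 libraries with both agents fall below 1.

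Among all 26 integrin subunits, 18 alpha and 8 beta, ITGB1 ranked highest and ITGAV was the fourth. The ranks between them were held by ITGB7 (mean 179 TPM), a subunit best known from gut-homing lymphocytes, and ITGA6 (168 TPM), a laminin receptor subunit. ITGB5, another partner of ITGAV, followed at 46.2 TPM, then ITGA5, the fibronectin receptor subunit, at 43.3 TPM and ITGA3 at 39.0 TPM. These 7 subunits were the ones above a mean of 10 TPM, and 13 subunits were under 0.2 TPM. ITGB3 and ITGA4 ranked at 21 and 22. The candidate pairs followed here, ITGAV with ITGB3 and ITGA4 with ITGB1, therefore each had 1 abundant subunit and 1 subunit near 0. Other pairs were not assessed as receptors of the ligand.

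ITGB1 made up 69.2% to 76.3% of the summed TPM of the beta subunits without treatment and 64.7% to 84.1% after CX3CL1. With IFN-γ it made up 44.5% to 62.3%, and with both agents 52.6% to 65.6%. The untreated and IFN-γ ranges did not overlap. The share of ITGB7 was higher in turn with IFN-γ, at 30.3% to 47.9% against 14.8% to 21.5% without treatment. Its level was 155, 84.7 and 103 TPM without treatment and 380, 176 and 231 TPM with IFN-γ, a difference of 1.16 (SE 0.35, adjusted p = 0.0597 by limma) that was not called. With the replicate block, which takes up the high level of ITGB7 in replicate 1 of every group, it was called (adjusted p = 6.0e-06), as was the difference of 0.97 between CX3CL1+IFN-γ and CX3CL1 (adjusted p 0.151 without and 7.1e-05 with the block). The block called 1929 and 1369 of the 11878 genes in these comparisons, against 932 and 558 without it. ITGAV made up 21.6% to 26.1% of the alpha subunits without treatment and 15.6% to 19.4% with IFN-γ. In cells with CX3CL1 the ITGAV shares overlapped, at 21.7% to 27.7% without IFN-γ and 18.6% to 25.1% with it. These shares were also described after the values were seen.

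**Figure D4:**
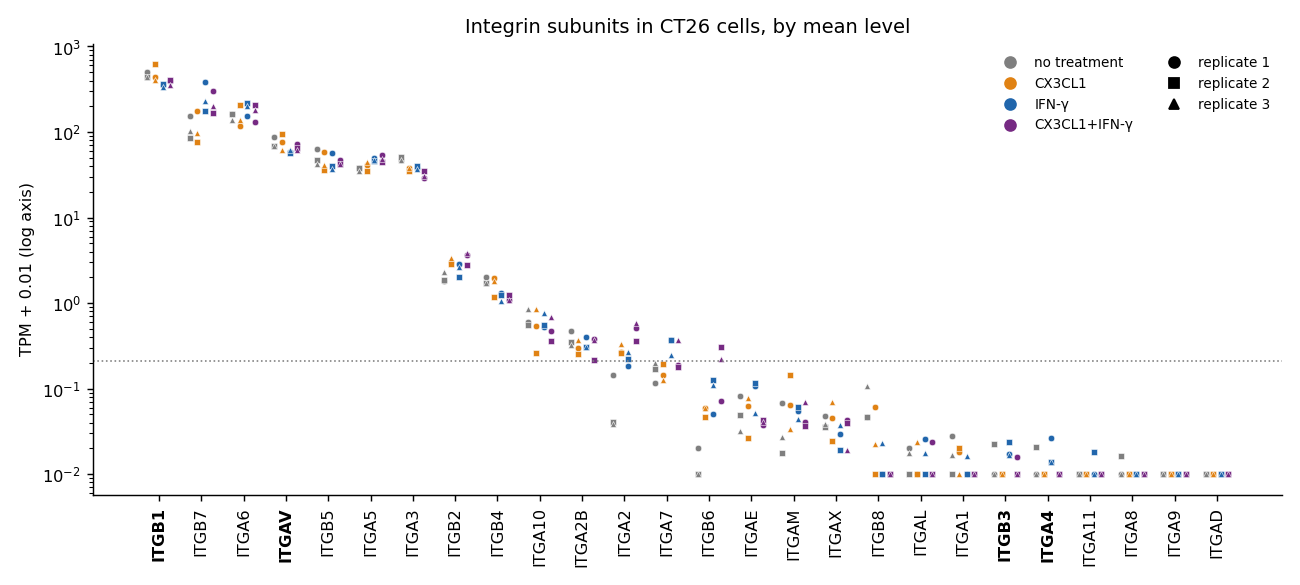
TPM + 0.01 of the 26 integrin subunits in each library on a log axis, ordered by mean level, with colours for the groups, shapes for the replicates and a dotted line at the minimum of 0.2 TPM, drawn with the same 0.01 added. ITGB1 is the highest and ITGAV the fourth, while ITGB3 and ITGA4 lie among the subunits at or near 0.

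Of the other integrin alpha subunits 7 of 16 were tested, and ITGA3, a laminin receptor subunit, was the 1 called. It was at 46.7, 51.6 and 47.7 TPM without treatment and at 37.7, 40.5 and 37.2 TPM with IFN-γ, a difference of -0.33 (SE 0.09, adjusted p = 0.0456 by limma). The call was lost when any 1 of the 6 libraries was left out (adjusted p 0.0660 to 0.166) and in a fit without the intensity trend. After CX3CL1 ITGA3 was at 37.7, 35.4 and 38.1 TPM, all below the untreated values, a difference of -0.38 that was not called (SE 0.09, adjusted p = 0.0585 by limma). The replicate block called it lower (adjusted p = 0.0239 by limma), where 455 of the 11878 genes were called. In this comparison the data do not pair the same-numbered libraries, as given below. With no minimum TPM, 1 of 14 other alpha subunits was called lower after CX3CL1. With the replicate block ITGA5 was called higher with IFN-γ (0.36, adjusted p 0.0537 without and 0.0205 with it). Of the other beta subunits 4 of 6 were tested and none was called in the fit described above. Quantile normalization and the GC and length centring, both without the block, called 1 of them lower in each IFN-γ comparison. These settings called 1092 and 1375 of the 11878 genes with IFN-γ, and 577 and 837 with IFN-γ added to CX3CL1. The median difference with IFN-γ was 0.19 for the 7 alpha and 0.02 for the 4 beta subunits, beside 0.03 over all genes, of which 7.85% were called. The alpha median is the value of ITGA2. This gene averaged 0.0641 TPM without treatment, and 0.277, 0.217 and 0.475 TPM after CX3CL1, with IFN-γ and with both agents. ITGA2 passed the minimum only through the treated groups. ITGA7 passed it only through the groups with IFN-γ (0.320 and 0.238 TPM, against 0.152 and 0.145 TPM). The median is therefore not read as a rise of the alpha subunits.

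Among 14 integrin activators and adapters 13 were tested. The abundant ILK (123 TPM on average) and PARVA, which join in the complex that ties beta subunits such as ITGB1 to actin, were called lower in both IFN-γ comparisons, and no adapter was called in the others. ILK was at 135, 146 and 150 TPM without treatment and at 101, 114 and 110 TPM with IFN-γ, a difference of -0.40 (SE 0.09, adjusted p = 0.0110 by limma). In cells with CX3CL1 it fell from 132, 135 and 149 TPM to 98.7, 99.1 and 105 TPM with IFN-γ added, a difference of -0.45 (SE 0.09, adjusted p = 0.00877). PARVA differed by -0.45 (adjusted p = 0.0101) and -0.42 (adjusted p = 0.0219). The ILK call was lost without no treatment replicate 3 or IFN-γ replicate 1 (adjusted p up to 0.0644), and was kept in every such fit in cells with CX3CL1. In cells with CX3CL1 the ILK and PARVA calls were both lost when only the 6 libraries compared were fitted. The PARVA call was lost without IFN-γ replicate 3 (adjusted p = 0.0576), and, in cells with CX3CL1, without CX3CL1 replicate 1 or CX3CL1+IFN-γ replicate 1 or 3 (adjusted p up to 0.0935). TLN1, which encodes the integrin activator talin, averaged 106 TPM and was not called. VCL, which encodes the adapter vinculin, was at -0.45 with IFN-γ (adjusted p 0.0527 by limma, and 0.00560 with the block, which called it lower). The median difference of the 13 was -0.07 with IFN-γ, beside 0.03 over all genes. Of all genes 7.85% were called with IFN-γ and 4.70% with IFN-γ added to CX3CL1.

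The partners and inhibitors of the sheddases gave 10 tested genes of 13. RHBDF2 encodes iRhom2, which carries ADAM17 to the cell surface. It was at 5.88, 6.36 and 5.25 TPM without treatment, at 11.3, 7.59 and 10.8 TPM after CX3CL1 and at 9.08 ± 0.925 TPM (SD, n = 3) with IFN-γ. Both treatments lay wholly above the untreated libraries, and RHBDF2 was called higher after CX3CL1 (0.66, SE 0.15, adjusted p = 0.0469 by limma) and with IFN-γ (0.56, SE 0.15, adjusted p = 0.0412). With both agents it was at 13.4, 10.6 and 13.7 TPM, and the further differences were not called. These calls stood close to the threshold. After CX3CL1 the call was kept without CX3CL1 replicate 2 (0.82, adjusted p = 0.00820) and lost without any of the 5 others (adjusted p up to 0.236). With IFN-γ it was lost without any 1 of the 6 libraries (adjusted p 0.0594 to 0.167). Both calls were lost with no minimum TPM, the call after CX3CL1 also with only the compared libraries, and the call with IFN-γ also under median-ratio scaling and quantile normalization.

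TSPAN5, a tetraspanin that accompanies ADAM10, was called lower with IFN-γ (-0.46, adjusted p = 0.0267 by limma), from 43.9, 40.9 and 39.3 TPM to 30.8, 31.9 and 26.8 TPM. The block also called it lower when IFN-γ was added to CX3CL1 (-0.43, adjusted p 0.0554 without and 0.00736 with it). The call without the block was kept in 1 of 6 fits that left out 1 library, the fit without IFN-γ replicate 2 (adjusted p over the 6 fits 0.0432 to 0.132). The median over the 10 partners and inhibitors was 0.02 after CX3CL1 and 0.01 with IFN-γ, beside -0.02 and 0.03 over all genes. Of all genes 1.95% and 7.85% were called in these comparisons. TIMP1, a metalloprotease inhibitor, was the most abundant of them at 344 TPM, followed by the ADAM-activating protease gene FURIN at 37.4 TPM, and neither was called. TIMP3, the inhibitor known for ADAM17, was below the minimum at 0.310 TPM or less in every library.

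Of 9 other ADAM genes 5 were tested. The most abundant, ADAM9 (132 TPM) and ADAM15 (37.8 TPM), were not called, and ADAM9 was the only one of the 5 above ADAM10 in mean level. ADAM8, a protease of activated leukocytes and some tumours, was at 3.17 ± 0.810 TPM (SD, n = 3) without treatment and rose to 5.26, 8.59 and 8.64 TPM with IFN-γ (1.02, SE 0.21, adjusted p = 0.00859 by limma). It was also called higher when IFN-γ was added to CX3CL1 (0.82, adjusted p = 0.0413), a call kept in 1 of 6 fits that left out 1 library, the fit without CX3CL1 replicate 2 (adjusted p up to 0.150). That call was also lost with no minimum TPM, median-ratio scaling, quantile normalization, GC and length centring, and only the compared libraries. ADAM12 fell with IFN-γ (-0.78, adjusted p = 0.00321) and so did ADAM33 (-1.06, adjusted p = 0.0133). Without no treatment replicate 3 or IFN-γ replicate 1 the ADAM33 call was lost (adjusted p up to 0.0728), while the ADAM8 and ADAM12 calls with IFN-γ were kept without any 1 library. With the replicate block ADAM12 (-0.46, adjusted p 0.0881 without and 0.0249 with it) and ADAM33 (-0.71, adjusted p 0.117 and 0.0108) were also called lower when IFN-γ was added to CX3CL1. The calls with IFN-γ among these 5 genes thus went in both directions, with a median of 0.01. Over all genes tested 7.85% were called with IFN-γ.

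Cathepsin S, encoded by CTSS, also cuts fractalkine. It was at 0.142, 0.0322 and 0 TPM without treatment and at 1.56, 0.701 and 0.866 TPM with IFN-γ, a difference of 0.93 (SE 0.17, adjusted p = 0.00468 by limma). Added to CX3CL1, IFN-γ gave 1.74, 0.778 and 1.52 TPM against 0, 0.0552 and 0.0970 TPM (1.14, SE 0.17, adjusted p = 0.00231). CTSS passed the minimum of 0.2 TPM only through the groups with IFN-γ, where it was high, so it entered the test on the strength of that difference. Both calls were kept without any 1 library, it was not tested at a minimum mean of 1 TPM, and the levels remained far below those of ADAM10 and ADAM17. MMP2, another protease described to cut the ligand, was at 0.0364 TPM or less in every library.

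**Figure D5:**
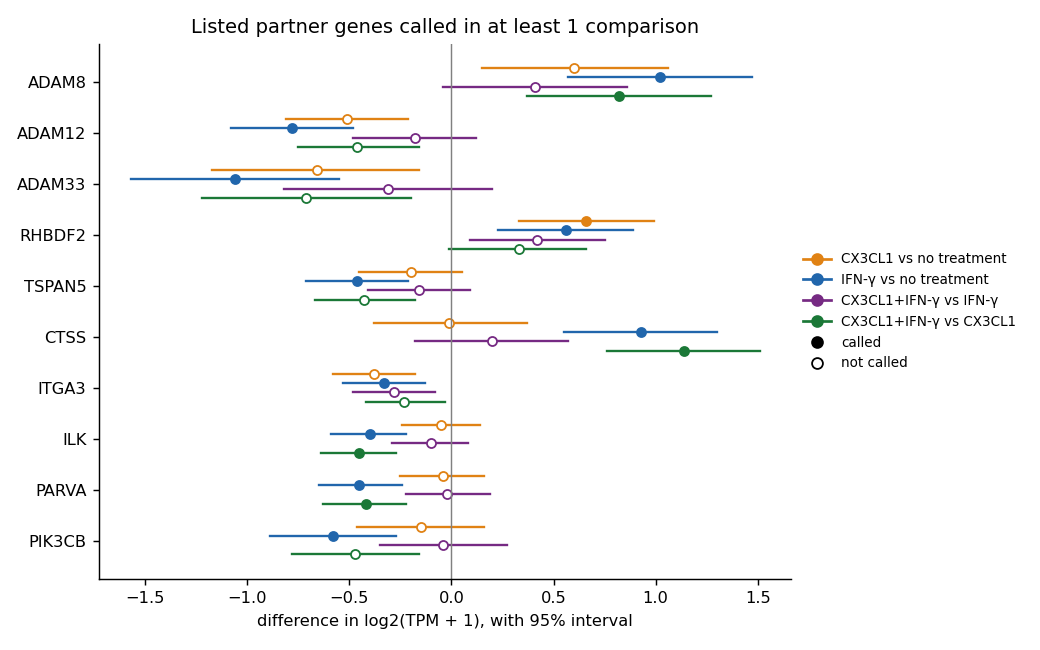
Difference in log2(TPM + 1) with its 95% interval in 4 comparisons, for each listed partner gene called in at least 1 of them, with filled points for calls at an adjusted p under 0.05 and open points for the rest. ADAM8 and CTSS lie above 0 with IFN-γ, ADAM12, ADAM33, ILK and PARVA lie below 0, and RHBDF2 is the gene of this set called after CX3CL1 alone.

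Downstream of CX3CR1, 8 of the 10 listed signalling genes found among the symbols were tested. The Gi subunit genes GNAI2 and GNAI3, which would couple the receptor, averaged 300 and 230 TPM and were not called. PIK3CB, a catalytic subunit of phosphoinositide 3-kinase, was called lower with IFN-γ (-0.58, adjusted p = 0.0262 by limma), a call kept in 1 of 6 fits that left out 1 library, the fit without IFN-γ replicate 2 (adjusted p over the 6 fits 0.0232 to 0.117). Of the beta-arrestin genes, ARRB1 (mean 10.4 TPM) was at -0.34 with IFN-γ, not called without the block and called lower with it (adjusted p 0.480 and 0.0337). The more abundant ARRB2 (30.2 TPM) was at 0.15 and was not called. PIK3CB was called lower by the block when IFN-γ was added to CX3CL1 (-0.47, adjusted p 0.0919 and 0.0262). The median of the 8 was -0.09 with IFN-γ, where 7.85% of all genes were called. CXCL16, the other membrane-bound chemokine, and its receptor CXCR6 did not pass 0.0780 TPM. CCL26, another ligand described for CX3CR1, was not found among the gene symbols measured.

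Of 12 other substrates of ADAM10 and ADAM17 10 were tested and none was called in the fit described above. Of all genes 1.95% were called after CX3CL1, 7.85% with IFN-γ, 0.362% with CX3CL1 added to IFN-γ and 4.70% with IFN-γ added to CX3CL1. Other settings without the block called 2 higher after CX3CL1, under median-ratio scaling and under GC and length centring, and 1 lower with IFN-γ added to CX3CL1 under that centring. These settings called 253 and 299 of the 11878 genes after CX3CL1, and the centring called 837 with IFN-γ added to CX3CL1. The most abundant substrates were CD44 (340 TPM) and TNFRSF1A, a TNF receptor gene (114 TPM). The median over the 10 was 0.23 after CX3CL1 and 0.10 with IFN-γ, beside -0.02 and 0.03 over all genes. With the replicate block TNFRSF1A was called higher with IFN-γ (0.31, adjusted p 0.0933 without and 0.0205 with it) and with IFN-γ added to CX3CL1 (0.35, adjusted p 0.0810 and 0.0154). The other TNF receptor gene TNFRSF1B was called in the same way (0.63 in both, adjusted p 0.0567 and 0.00297, and 0.0767 and 0.00423). The growth factor genes among the substrates gave EREG higher when CX3CL1 was added to IFN-γ (0.74, adjusted p 0.179 and 0.0232) and HBEGF lower when IFN-γ was added to CX3CL1 (-0.46, adjusted p 0.0741 and 0.0150). After CX3CL1 alone the block called EREG (0.67, adjusted p 0.0960 and 0.0137) and CD44 (0.44, adjusted p 0.0708 and 0.0296) higher. In that comparison the data do not pair the same-numbered libraries, as given below. Of the 11878 genes the block called 455 after CX3CL1 and 1929 with IFN-γ. It called 95 with CX3CL1 added to IFN-γ and 1369 with IFN-γ added to CX3CL1.

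Among the cell markers, KRT18 was called lower with IFN-γ (-0.68, adjusted p = 0.0346 by limma) and the leukocyte gene FCER1G lower when CX3CL1 was added to IFN-γ (-0.61, adjusted p = 0.0470). Of all genes 7.85% and 0.362% were called in these comparisons. FCER1G averaged 0.618 TPM with IFN-γ, and 0.291, 0.181 and 0.0604 TPM without treatment, after CX3CL1 and with both agents. It passed the minimum of 0.2 TPM only through the IFN-γ group, so it entered the test on the strength of that difference. The KRT18 call was kept in 1 of 6 fits that left out 1 library, the fit without no treatment replicate 1 (adjusted p over the 6 fits 0.00808 to 0.164), and the FCER1G call in 0 of 6 (0.0662 to 0.256). The KRT18 call was also lost with no minimum TPM, and the FCER1G call under a pseudocount of 0.1, a minimum mean of 1 TPM (which leaves it out), median-ratio scaling, quantile normalization, GC and length centring and only the compared libraries. VIM was at -0.54 with IFN-γ and at -0.57 with IFN-γ added to CX3CL1, and was called lower with the block (adjusted p 0.0140 and 0.0138, against 0.164 and 0.176 without it). The block called 1929 and 1369 of the 11878 genes in these comparisons. The part of these markers in the lower ITGB1, ITGAV and ADAM10 levels with IFN-γ was not tested.

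Across the 12 libraries ADAM10, ITGAV and ITGB1 followed each other closely. The Pearson correlation of log2(TPM + 1) was 0.928 for ADAM10 and ITGB1, 0.916 for ITGAV and ITGB1 and 0.895 for ADAM10 and ITGAV. ADAM17 was less like them, at 0.376 with ADAM10, 0.410 with ITGB1 and 0.520 with ITGAV. The 12 points share groups, libraries and the low GC content given above, so these are descriptions with no test. Over all tested genes, those most like ADAM10 included MBNL1 (0.995) and KIFAP3 (0.981), and those most like ITGB1 were SPOPL (0.989), REEP3 (0.984) and DYNLT3 (0.979). ITGAV was most like BMPR2 (0.981), PRKACB (0.974) and PLS3 (0.970), and ADAM17 most like GOPC (0.961), SKIL (0.941) and GM527 (0.940).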

How the data were processed

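Per the study's methods and processing notes, strand-specific mRNA libraries were aligned to mm10 and counted per gene with STAR 2.7.3a, and the authors tested the counts with DESeq2 1.22.1. The deposited values are TPM, scaled by the authors to 1000000 in each library. How counts became TPM, the annotation, and how reads shared by similar genes were treated are not given in the sources used here, and gene counts were not analysed here. Of the symbols, 6747 were at 0 in every library.

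Log2(TPM + 1) was fitted for 11878 genes, those with a mean over the 12 libraries of 0.2 TPM or more, with the limma package (version 3.58.1, R 4.3.3). The functions lmFit and eBayes (trend included) were used on all 12 libraries without a block or covariate. P-values were adjusted by Benjamini-Hochberg over all genes tested, and called below 0.05. The script was checked with simulated data. Genes under the minimum got exact two-sided permutation tests. The members and gene lists were chosen with earlier results of these data known. Genes named are the 8 studied, the called genes and the 2 most abundant genes of each list, and the 3 genes most correlated with each expressed member, of which 1 is not reported here. Exceptions chosen after seeing values are stated. Tables were prepared with Python 3.11.15 and pandas 2.3.3. Positions are from GENCODE vM21 on GRCm38, and promoters from RefSeq on GRCm38.p6.

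Replicate numbers are shared between groups by the labels. Deviations from the group means of same-numbered libraries correlated at 0.429, 0.460 and 0.220 for IFN-γ and no treatment, at 0.630, 0.635 and 0.649 for CX3CL1+IFN-γ and IFN-γ, and at 0.351, 0.353 and 0.428 for CX3CL1+IFN-γ and CX3CL1, so the pairing rests on the data. For CX3CL1 and no treatment they were 0.387, 0.00472 and 0.301, which does not pair them. With the block, which the data do not bear out there, limma called further listed genes in that comparison. Of all 11878 genes it called 455, against 232 without the block. ADAM8 (0.6, adjusted p = 0.0250), ITGB2 (0.46, 0.0268), EREG (0.67, 0.0137) and CD44 (0.44, 0.0296) were higher after CX3CL1. ADAM12 (-0.51, 0.0308), ADAM33 (-0.66, 0.0311), ITGA3 (-0.38, 0.0239) and ARRB1 (-0.46, 0.0230) were lower.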

Additional observations from a re-analysis of the deposited data

How the results depend on the processing

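The differences of ADAM10, ADAM17, ITGAV and ITGB1 were recomputed 340 times over the 5 comparisons. Direction and call were kept in 310, 12 were newly called, none lost a call, and 18 changed sign. The alternatives were leaving out each library, the replicate number as a block, quantile normalization, median-ratio scaling, a pseudocount of 0.1, a minimum mean of 1 TPM or none, a fit without the intensity trend and a fit of only the groups compared. GC and length centring, alone and with the block, was added after seeing the data, with values for 98.9% of genes.

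For IFN-γ against no treatment, where 0 of the 4 genes were called, the replicate block called 1 (ITGB1), the fit of only the groups compared 1 (ITGB1), and GC and length centring 3, with the block also 3. Of all 11878 genes these settings called 1929, 1291, 1375 and 2884, against 932 in the fit described above. For CX3CL1+IFN-γ against CX3CL1 the centring called 1 and the centring with the block 3. Of all 11878 genes they called 837 and 2149, against 558 in the fit described above. The block changed no other call among the 4 genes. ITGAV turned to -0.01 for CX3CL1 against no treatment under quantile normalization and under centring with and without the block. ADAM10 turned to -0.02 for CX3CL1+IFN-γ against IFN-γ under centring with and without the block.

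Leaving out 1 library, CX3CL1 against no treatment ranged from -0.24 to 0.10 for ADAM10, -0.14 to 0.17 for ITGAV and -0.10 to 0.19 for ITGB1, and IFN-γ against no treatment from -0.07 to 0.01 for ADAM17. CX3CL1+IFN-γ against CX3CL1 kept its direction, from -0.39 to -0.04 for ADAM10, -0.35 to -0.04 for ITGAV and -0.44 to -0.15 for ITGB1, each smallest without CX3CL1 replicate 2. The interaction ranged from -0.01 to 0.33 for ADAM10, 0 to 0.31 for ITGAV and -0.06 to 0.23 for ITGB1. The cause of these changes was not tested. Precision is limited by 3 libraries a group and by TPM, which hold no depth.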
